A study of Mus musculus with 8 samples.

Results

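The clock output factors examined here are 8 transcription regulators grouped as outputs of the circadian clock, some of which also act back on it. They are the PAR-bZIP activators *Dbp*, *Tef* and *Hlf*, their opponent *Nfil3*, the E-box repressors *Bhlhe40*, *Bhlhe41* and *Ciart*, and the nuclear receptor *Rora*. They were taken by gene symbol from the table of counts per gene, and 8 of 8 were among its 12551 genes. RNA sequencing compared whole tibialis anterior (TA) muscles, a fast-twitch muscle of the lower leg, of 4 wild-type mice (WT, Klotho wt/wt) with those of 4 mice without Klotho (KL-/-, Klotho null/null), all male, untreated and 7 weeks old. The question was how the loss of Klotho, a protein made mainly in kidney and required for the hormone FGF23 to control phosphate, alters muscle transcripts. The mice were bred from heterozygotes on a mixed background and lacked Klotho in every tissue, so effects of its loss in muscle and elsewhere cannot be told apart. *Kl* itself has no row in the table, so the genotype of each library is known from its label alone.

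In the clock of mammalian cells, BMAL1 (encoded by *Arntl*) pairs with CLOCK or NPAS2 and activates genes through E-boxes, and the PER and CRY proteins, made from such genes, repress that activation in turn. DBP, TEF and HLF share a proline- and acidic-rich (PAR) domain beside a basic leucine zipper and activate genes through D-boxes, while NFIL3 (also called E4BP4) binds the same element and represses. RORA activates and the REV-ERB proteins (*Nr1d1*, *Nr1d2*) repress through a shared element, by which they set the level of *Arntl* and *Nfil3*, and these outputs carry the daily rhythm to metabolic genes of muscle.

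Counts on genes summed to between 20860262 and 29273758 per library. At these totals 3 counts stood for a level of 0.105 to 0.143 CPM, the count scaled to library size. The 8 genes were counted between 34 times (*Ciart*, WT replicate 3) and 11240 times (*Tef*, KL-/- replicate 1) per library. KL-/- replicate 3 carries a later batch date than the other 7 libraries, and as the batch holds 1 library of 1 genotype, batch and mouse cannot be told apart. KL-/- replicate 2 differed most from its group, with a chi-square per gene of 60.3 to 84.4 against the other KL-/- libraries, where these differed from each other by 17.8 to 27.8. No pair within a genotype was a duplicate, since the smallest value was 9.91 and sampling noise gives about 1. Values without these libraries are given below for each of the 8 genes whose call they alter. The hour at which each muscle was taken is not given in the sources used here, and its part in any difference below was not tested.

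In KL-/- muscle *Tef*, *Rora* and *Nfil3* rose, by 1.32-fold, 1.30-fold and 2.41-fold, and 0 of the 8 genes fell (0 also by DESeq2 and limma-voom). These calls have a false discovery rate (FDR) under 0.05 in edgeR's quasi-likelihood test over all 12551 genes, after scaling by TMM factors, which correct library sizes for composition. Over all genes tested, 14.0% passed in either direction 7.35% passed as higher and 6.67% as lower in KL-/- muscle, against 3 and 0 of the 8 genes. Of the 5 that did not pass, *Dbp*, *Hlf* and *Ciart* had positive and *Bhlhe40* and *Bhlhe41* negative log2 fold changes. In edgeR's quasi-likelihood test neither negative change had an unadjusted p under 0.05 (*Bhlhe41* 0.0575, *Bhlhe40* 0.134). *Bhlhe41* had an unadjusted p of 0.0339 by DESeq2 (FDR = 0.120) and of 0.0311 by limma-voom (FDR = 0.118). In *Tef*, *Hlf* and *Rora* every KL-/- library lay above every WT library, and no gene had the opposite order. Of all genes 19.7% were separated in this way, 10.2% with KL-/- muscle above and 9.47% with it below. The median log2 fold change of the 8 genes was 0.41, and that of all genes −0.016. The calls were close to the threshold, and with each library left out in turn between 0 and 4 of the 8 genes passed. In the same fits the share of all genes that passed ran from 6.07% (without KL-/- replicate 3, with 0 of the 8) to 22.0% (without KL-/- replicate 2, with 4 of the 8). The 2 did not always go together, since without WT replicate 4 the share was 10.9%, also with 0 of the 8.

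**Figure D1:**
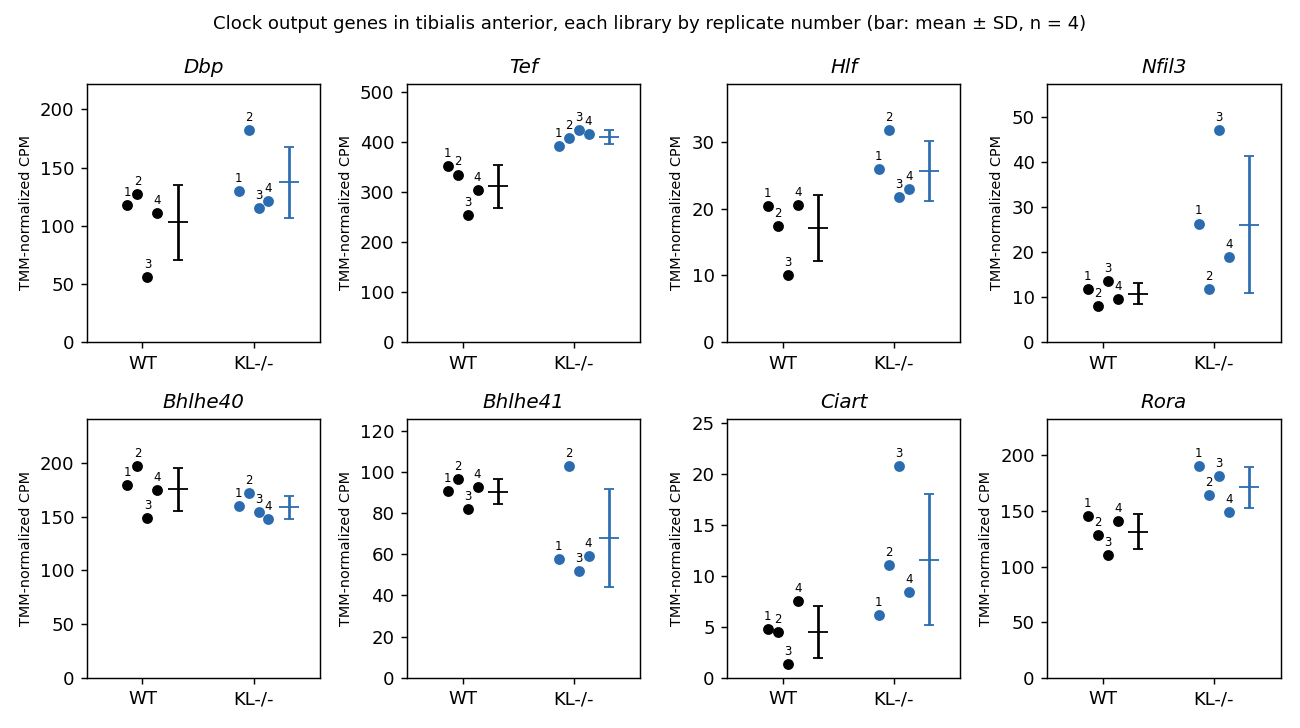
Levels of the 8 clock output genes in TMM-normalized CPM (vertical axes, from 0) in each WT (black) and KL-/- (blue) library, numbered by replicate, with the mean ± SD of n = 4 beside them. All KL-/- points of *Tef*, *Hlf* and *Rora* sit above all WT points, while *Nfil3* and *Ciart* spread widely in KL-/- muscle. KL-/- replicate 2 of *Bhlhe41* sits at 103 CPM, above all WT points.

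Compared per kilobase of counted exons, the PAR-bZIP genes *Tef* and *Dbp* were the most abundant of the 8 in WT muscle, at 69.8 ± 9.61 and 61.4 ± 19.2 CPM per kb (SD, n = 4), followed by *Bhlhe40* at 56.3 ± 6.48. These 3 lay within their spread of each other. *Bhlhe41* at 14.8 ± 1.01 and *Rora* at 10.7 ± 1.29 CPM per kb came next. Then came *Nfil3* at 5.43 ± 1.20, *Ciart* at 3.24 ± 1.83 and *Hlf* at 3.01 ± 0.866. The spread of *Ciart* overlapped those of both *Nfil3* and *Hlf*. In KL-/- muscle *Tef* and *Dbp* were again highest, at 91.9 ± 2.98 and 81.9 ± 18.1 CPM per kb, and *Hlf* lowest, at 4.52 ± 0.789. *Rora*, *Nfil3* and *Bhlhe41* lay within their spread of each other there, at 13.9 ± 1.502, 13.1 ± 7.64 and 11.1 ± 3.86 CPM per kb. The spread of *Ciart*, at 8.31 ± 4.63 CPM per kb, overlapped those of these genes and of *Hlf*.

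*Tef* (chromosome 15, 81802673 to 81826863 of mm10, plus strand) encodes the PAR-bZIP factor first described in the thyrotroph embryonic pituitary. It was at 351, 335, 254 and 304 CPM in WT replicates 1 to 4 and at 392, 408, 423 and 415 CPM in KL-/- replicates 1 to 4. The KL-/- libraries were close together and all above the highest WT library, and WT replicate 3 was the lowest. The mean level was 311 ± 42.9 CPM for WT mice and 410 ± 13.3 CPM for KL-/- mice (SD, n = 4). The log2 fold change was 0.40 (standard error 0.095, edgeR FDR = 0.0268). The FDR rose above 0.05 in 3 of the 8 fits without 1 library, to 0.0541 without WT replicate 4, 0.0716 without KL-/- replicate 3 and 0.0691 without KL-/- replicate 4, while the log2 fold change stayed between 0.31 and 0.46.

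*Dbp* (chromosome 7, 45705247 to 45710203, plus strand), a D-box binding factor with a wide daily swing in many tissues, was at 118, 128, 55.7 and 111 CPM in WT replicates 1 to 4. In the KL-/- replicates it was at 130, 182, 116 and 122 CPM. WT replicate 3 stood far below the other 7 libraries, KL-/- replicate 2 stood above them, and the genotypes overlapped. The means of 103 ± 32.3 and 137 ± 30.4 CPM (SD, n = 4) gave a log2 fold change of 0.42 with a 95% confidence interval from −0.12 to 0.95. This change did not pass (edgeR FDR = 0.259), and its size is imprecise. Without WT replicate 3 the log2 fold change was 0.21 and without KL-/- replicate 2 it was 0.26. At its 3′ end *Dbp* shares 539 bases, 32.1% of its counted length, with *Sphk2* on the other strand, and whether the counting used strand is not given in the sources used here. The level of *Sphk2* was 19.9 ± 2.31 CPM in WT mice and 15.3 ± 3.20 CPM in KL-/- mice (SD, n = 4).

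*Hlf* (chromosome 11, 90336535 to 90390917, minus strand), named hepatic leukemia factor after a fusion gene in which it was found, was at 20.3, 17.4, 10.03 and 20.5 CPM in WT replicates 1 to 4. In the KL-/- replicates it was at 26.0, 31.7, 21.7 and 23.0 CPM. As in *Dbp*, WT replicate 3 was lowest and KL-/- replicate 2 highest, but here the genotypes did not overlap. The means were 17.1 ± 4.91 and 25.6 ± 4.47 CPM (SD, n = 4), and the log2 fold change of 0.58 (standard error 0.21) did not pass (edgeR FDR = 0.0938). No fit that left out 1 library brought *Hlf* past the threshold, and DESeq2 did (FDR = 0.0354).

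*Nfil3* (chromosome 13, 52967209 to 52981039, minus strand), the D-box repressor that is also known as a regulator of immune cells, was at 11.9, 8.09, 13.5 and 9.72 CPM in WT replicates 1 to 4. In the KL-/- replicates it was at 26.4, 11.9, 47.1 and 18.9 CPM. KL-/- replicate 3 was highest, and KL-/- replicate 2, alone among the KL-/- libraries, lay within the WT range. The mean rose from 10.8 ± 2.39 CPM (SD, n = 4) and reached 26.1 ± 15.2 CPM. Its log2 fold change was 1.27 (standard error 0.36, edgeR FDR = 0.0471). The gene thus moved in the same direction as *Tef*, whose product it opposes. This call was the least stable of the 3: the FDR was between 0.0689 and 0.118 in each of the 7 fits that left out any library but KL-/- replicate 2, and 0.0105 without that replicate. Without KL-/- replicate 3, the highest library and the one of the other batch date, the log2 fold change was 0.82 (edgeR FDR = 0.0933).

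The balance of activator to repressor within a library does not depend on scaling between libraries. Counts per kb of *Dbp* over *Nfil3* were 11.8, 18.7, 4.89 and 13.6 in WT replicates 1 to 4 and 5.85, 18.1, 2.91 and 7.63 in KL-/- replicates 1 to 4. The medians were 12.7 in WT and 6.74 in KL-/- muscle, and the genotypes overlapped through WT replicate 3 and KL-/- replicate 2. *Tef* over *Nfil3* had medians of 13.6 and 8.22, also with overlap. *Hlf* over *Dbp* was 0.0405 to 0.0548 in WT and 0.0516 to 0.0591 in KL-/- muscle, again with overlap.

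**Figure D2:**
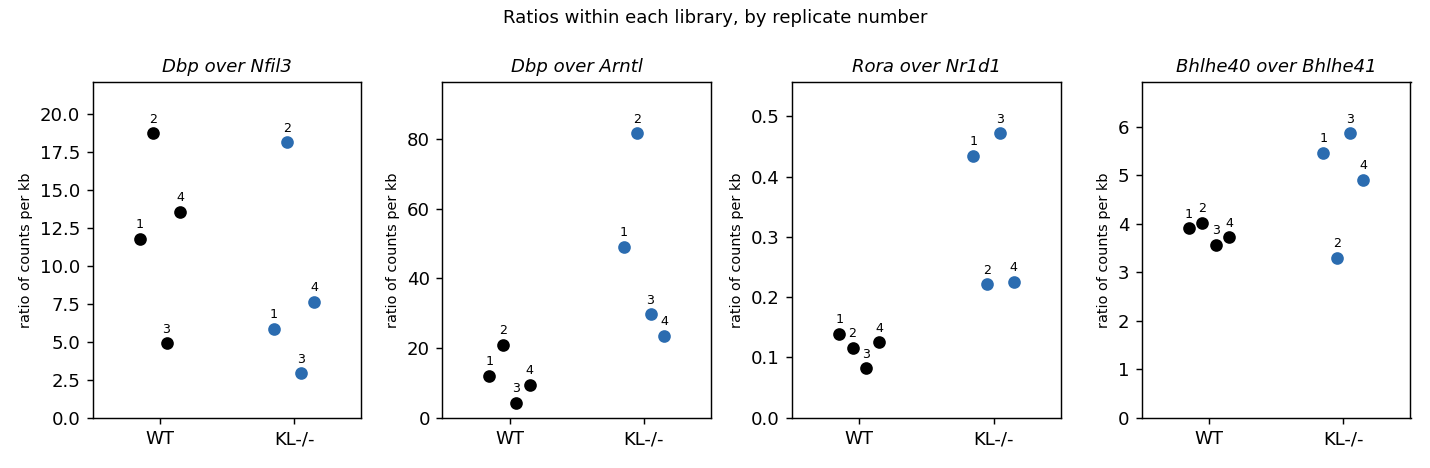
Ratios of counts per kb between gene pairs (vertical axes, from 0) in each WT (black) and KL-/- (blue) library, numbered by replicate. *Dbp* over *Nfil3* and *Bhlhe40* over *Bhlhe41* overlap between genotypes. *Dbp* over *Arntl* (4.12 to 20.9 in WT, 23.4 to 81.6 in KL-/-) and *Rora* over *Nr1d1* (0.0818 to 0.139 in WT, 0.221 to 0.471 in KL-/-) do not. *Rora* and *Nr1d1* each separated the genotypes alone, in opposite directions, so their ratio had to separate.

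*Bhlhe40* (chromosome 6, 108660629 to 108666925, plus strand) and *Bhlhe41* (chromosome 6, 145858243 to 145865420, minus strand) encode DEC1 and DEC2, which compete with BMAL1 and CLOCK at E-boxes. *Bhlhe40* was at 180, 198, 149 and 175 CPM in WT replicates 1 to 4 and at 160, 172, 155 and 147 CPM in the KL-/- replicates. The genotypes overlapped, and the log2 fold change of −0.15 had a 95% confidence interval from −0.34 to 0.053 (edgeR FDR = 0.284). *Bhlhe41* was at 90.7, 96.6, 82.0 and 92.7 CPM in WT and at 57.7, 103, 51.8 and 59.1 CPM in KL-/- replicates 1 to 4. Of the KL-/- libraries 3 lay below all WT libraries, and KL-/- replicate 2 lay above all of them. The means of 90.5 ± 6.16 and 67.9 ± 23.7 CPM (SD, n = 4) gave a log2 fold change of −0.42 (standard error 0.19, edgeR FDR = 0.170). Without KL-/- replicate 2 it was −0.68 and passed (edgeR FDR = 0.00137). An annotated transcript of unknown type on the other strand covers 855 bases, 14.0% of the counted length of *Bhlhe41*. *Bhlhe40* over *Bhlhe41*, in counts per kb, was 3.57 to 4.02 in WT and 5.45, 3.29, 5.86 and 4.90 in KL-/- replicates 1 to 4.

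*Ciart* (chromosome 3, 95878505 to 95882228, minus strand) encodes CHRONO, a repressor that binds the BMAL1 and CLOCK pair. It was the least counted of the 8 genes, at 4.82, 4.44, 1.30 and 7.53 CPM in WT replicates 1 to 4 and at 6.14, 11.1, 20.8 and 8.37 CPM in the KL-/- replicates. WT replicate 3 was the lowest and KL-/- replicate 3 the highest of the 8 libraries, and KL-/- replicate 1 lay below WT replicate 4. Its log2 fold change of 1.35 was the largest of the 8 genes, but with a standard error of 0.48 it did not pass (edgeR FDR = 0.0893). Without KL-/- replicate 3 the log2 fold change was 0.90.

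The sequence before the start of *Ciart* is shown because it holds 3 E-boxes, the letters CACGTG (the same on both strands), in the 250 bases before the start. Among 32851 RefSeq promoters of GRCm38.p6 (mm10), each from 250 bases before to 50 bases after a start, 7.15% held 1 or more and 0.0883% held 3 or more. Promoters of 7 of the 8 genes were in that set, 8 in all, and *Bhlhe40* was not matched. Both starts of *Tef* and the start of *Bhlhe41* also had 1 E-box, and those of *Dbp*, *Hlf*, *Nfil3* and *Rora* had none in this window. The stretches around the E-boxes follow, 5′ to 3′ on the strand of the gene, with the E-boxes in capitals.
Ciart, chr3:95882255-95882356, minus strand: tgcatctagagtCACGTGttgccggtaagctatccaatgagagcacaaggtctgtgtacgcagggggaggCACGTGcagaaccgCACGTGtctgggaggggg
Tef, first start, chr15:81802534-81802563, plus strand: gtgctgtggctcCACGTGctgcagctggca
Tef, second start, chr15:81811264-81811293, plus strand: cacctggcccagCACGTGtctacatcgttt
Bhlhe41, chr6:145865556-145865585, minus strand: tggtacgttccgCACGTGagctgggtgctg
The E-boxes of *Ciart* begin 116, 58 and 44 bases before its start. Of the 3 genes with an E-box in the window *Tef* passed the test, and of the 4 without one *Nfil3* and *Rora* did.

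*Rora* (chromosome 9, 68653786 to 69388246, plus strand) encodes the retinoid-related orphan receptor alpha, an activator of *Arntl*. It was at 146, 128, 110 and 141 CPM in WT replicates 1 to 4 and at 191, 164, 181 and 149 CPM in KL-/- replicates 1 to 4. The genotypes did not overlap, though KL-/- replicate 4 and WT replicate 1 were close. The means were 131 ± 15.9 and 171 ± 18.5 CPM (SD, n = 4), and the log2 fold change was 0.38 (standard error 0.10, edgeR FDR = 0.0394). The FDR rose above 0.05 in 5 of the 8 fits without 1 library: 0.0979 without WT replicate 2, 0.0884 without WT replicate 3, 0.0501 without WT replicate 4, 0.0772 without KL-/- replicate 1 and 0.101 without KL-/- replicate 3. The log2 fold change stayed between 0.31 and 0.44 in these fits. Its opponent *Nr1d1* fell. *Rora* over *Nr1d1* in counts per kb was 0.139, 0.116, 0.0818 and 0.125 in WT replicates 1 to 4. In KL-/- replicates 1 to 4 it was 0.434, 0.221, 0.471 and 0.225, without overlap. Each of the genes alone separated the genotypes, in opposite directions, so this ratio had to separate too. *Rora* over *Nr1d2* was 0.230 to 0.290 in WT and 0.251 to 0.349 in KL-/- muscle, with overlap.

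**Figure D3:**
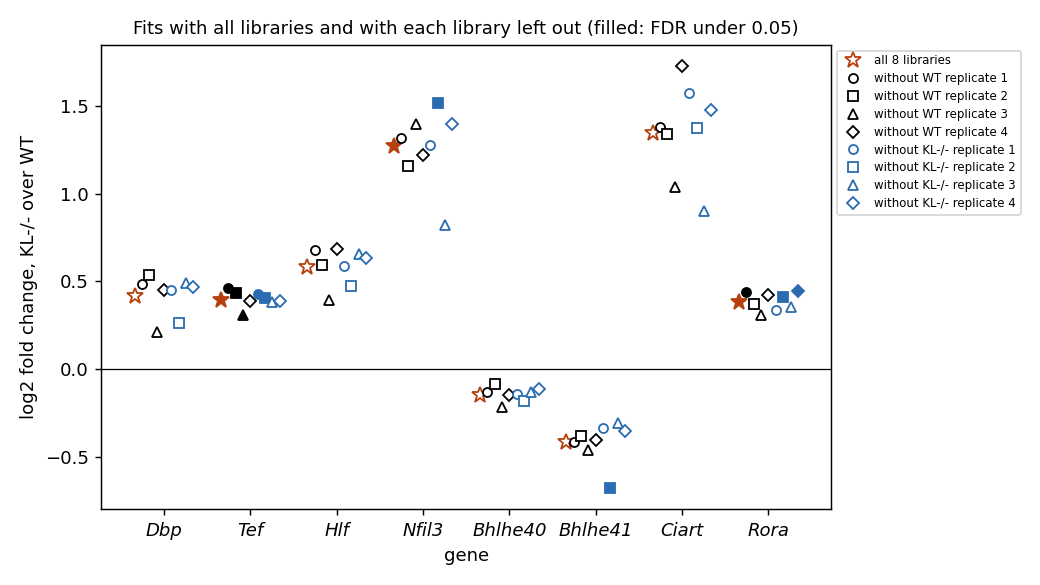
Log2 fold change of each clock output gene (vertical axis, KL-/- over WT) with all 8 libraries (star) and with each WT (black) or KL-/- (blue) library left out, filled where the FDR was under 0.05. No gene changed sign. *Nfil3* ranges from 0.82 to 1.51, *Ciart* from 0.90 to 1.73 and *Bhlhe41* from −0.68 to −0.31.

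Individual mice differed more in some of these genes than in others. The SD of log2 CPM within genotypes was at the 99.1 percentile of all genes tested for *Ciart*, 96.7 for *Nfil3*, 89.8 for *Dbp* and 85.9 for *Hlf*. It was near the middle for *Rora* (53.3), *Tef* (46.7) and *Bhlhe40* (41.7), and at 79.8 for *Bhlhe41*. WT replicate 3 was the lowest WT library in 7 of the 8 genes and the highest in the remaining one, *Nfil3*, both with TMM factors and with library totals. It was also the lowest in 6 and the highest in 3 of the 10 core clock genes, and the share over all genes was not counted. KL-/- replicate 2 was the highest KL-/- library in *Dbp*, *Hlf*, *Bhlhe40* and *Bhlhe41* and the lowest in *Nfil3*. KL-/- replicate 3 was highest in *Tef*, *Nfil3* and *Ciart* and lowest in *Dbp*, *Hlf* and *Bhlhe41*.

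The likeness of 2 genes was measured by the root mean square difference of their log2 CPM over the 8 libraries, each gene centred on its own mean. This difference is smaller between genes that vary little, so its size is not compared across the 8 genes. Their own root mean square ran from 0.139 for *Bhlhe40* through 0.241 for *Tef* to 1.07 for *Ciart*. Of the 8 genes and 10 core clock genes, *Dbp* and *Hlf* were nearest to each other (0.15), and so were *Tef* and *Rora* (0.13), a pair with small changes. *Ciart* was nearest to *Per1* (0.50), and *Per1* was also the nearest to it of 11989 genes whose average log2 CPM was 0 or more. Over those genes *Foxp2*, which encodes a forkhead factor, was the nearest to both *Dbp* (0.18) and *Hlf* (0.18), and *Foxp2* and *Thrb*, which encodes a thyroid hormone receptor, were the 2 nearest to *Hlf* within genotypes (0.089 and 0.084). *Nfil3* was nearest to *Pik3r1* (0.26), which encodes a regulatory subunit of PI3-kinase, then to *Il6ra* (0.30) and *Mt1* (0.32). For *Tef* the 3 nearest were *Rps21*, *Gstm5* and *Srpk2*, among those nearest to *Rora* were *Rbl2* and *Stk11ip*, for *Bhlhe40* *Adgra2*, *Rhobtb2* and *Lrrc40*, and for *Bhlhe41* *Fam19a3*, *Fam131a* and *Ebpl*, each at 0.102 or less. For *Dbp* *Rhebl1* and *Wdhd1* followed *Foxp2*, for *Hlf* *Gpr137c* and *Col9a1*, and for *Ciart* *Nxpe3* and *Slc25a25* followed *Per1*.

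**Figure D4:**
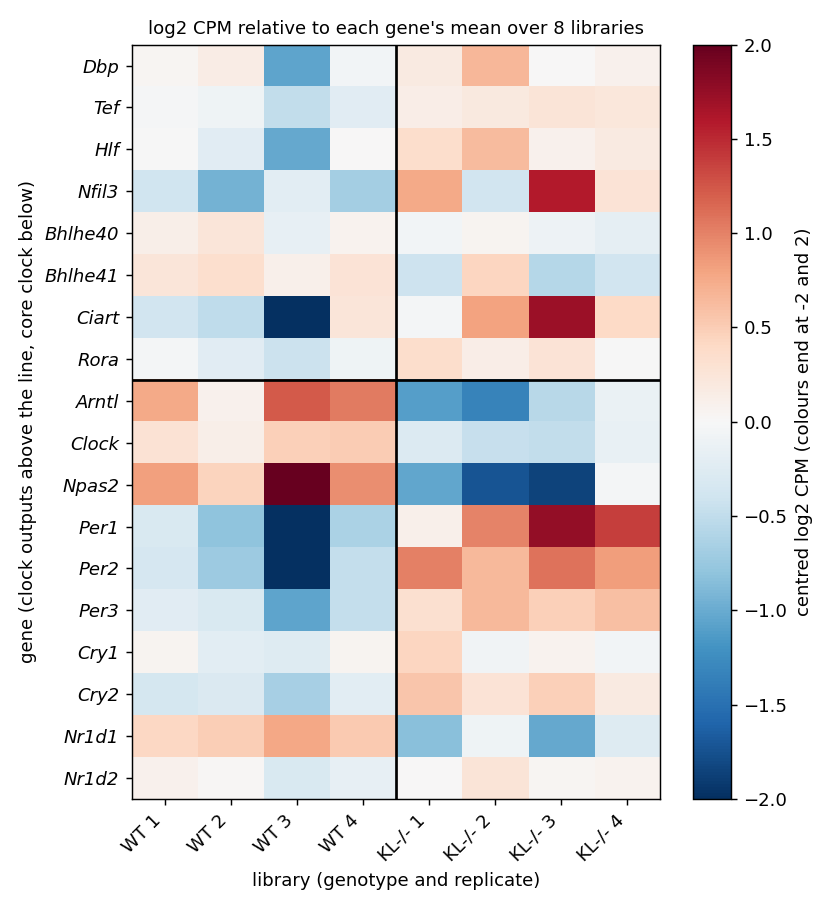
Centred log2 CPM (colour, blue below and red above each gene's mean, colours ending at −2 and 2) of the 8 clock output genes (upper rows) and 10 core clock genes (lower rows) in the 4 WT (left) and 4 KL-/- (right) libraries. *Arntl*, *Clock*, *Npas2* and *Nr1d1* are red in WT and mostly blue in KL-/- muscle, *Per1*, *Per2*, *Per3* and *Cry2* the reverse. WT replicate 3 is the bluest WT column in *Dbp*, *Hlf*, *Ciart*, *Per1* and *Per2*.

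The core clock genes had log2 fold changes between −2.61 and 2.04, against −0.42 and 1.35 in the 8 outputs. Of 11 listed, 10 were measured, 4 rose and 4 fell with an FDR under 0.05, against 7.35% and 6.67% of all genes, and *Rorb* had no row. Among activators, *Arntl* was at 16.9, 10.6, 23.4 and 20.4 CPM in WT and at 4.60, 3.87, 6.76 and 9.01 CPM in KL-/- replicates 1 to 4. All KL-/- libraries lay below all WT libraries, and its log2 fold change was −1.55 (standard error 0.29, edgeR FDR = 0.0114). *Clock* fell by 0.69 (edgeR FDR = 0.00598), and *Npas2*, counted 3 to 17 times per KL-/- library, fell by 2.61 on the log2 scale (edgeR FDR = 0.0295). Of the repressors *Per1* rose by 2.04, *Per2* by 1.68, *Per3* by 1.00 and *Cry2* by 0.75 on the log2 scale, while *Cry1*, at 0.19, did not pass. Of the nuclear receptors *Nr1d1* fell by 1.06 on the log2 scale, while *Nr1d2*, at 0.18, did not pass. *Arntl*, *Clock*, *Per2*, *Per3*, *Cry2* and *Nr1d1* passed in each of the 8 fits without 1 library. *Npas2* did not pass without KL-/- replicate 1 (FDR = 0.0672) or 3 (FDR = 0.0800) and *Per1* not without WT replicate 2 (FDR = 0.0558) or KL-/- replicate 3 (FDR = 0.0520) or 4 (FDR = 0.0542). *Dbp* over *Arntl* in counts per kb was 12.1, 20.9, 4.12 and 9.42 in WT replicates 1 to 4. In KL-/- replicates 1 to 4 it was 49.0, 81.6, 29.7 and 23.4, without overlap. *Arntl* alone also separated the genotypes, while *Dbp* alone did not.

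The *Per3* sequence is shown because it carries 2 D-boxes, the element of the PAR-bZIP factors and NFIL3, searched on both strands as TTANGTAA. 2.32% of the 32851 promoters held 1 or more and 0.0822% held 2 or more, and none of the 8 promoters of the clock output genes did. The ROR response element (RORE), which the ROR and REV-ERB receptors share, was searched on both strands too and found in 0.435% of all promoters, in none of those of the clock output genes and in 1 of the 2 of *Arntl*. These counts describe a window of 300 bases and no binding. The D-boxes stand in capitals.
Per3, chr4:151044804-151044882, minus strand: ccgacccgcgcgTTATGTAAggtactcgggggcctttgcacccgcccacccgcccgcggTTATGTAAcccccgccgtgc

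**Figure D5:**
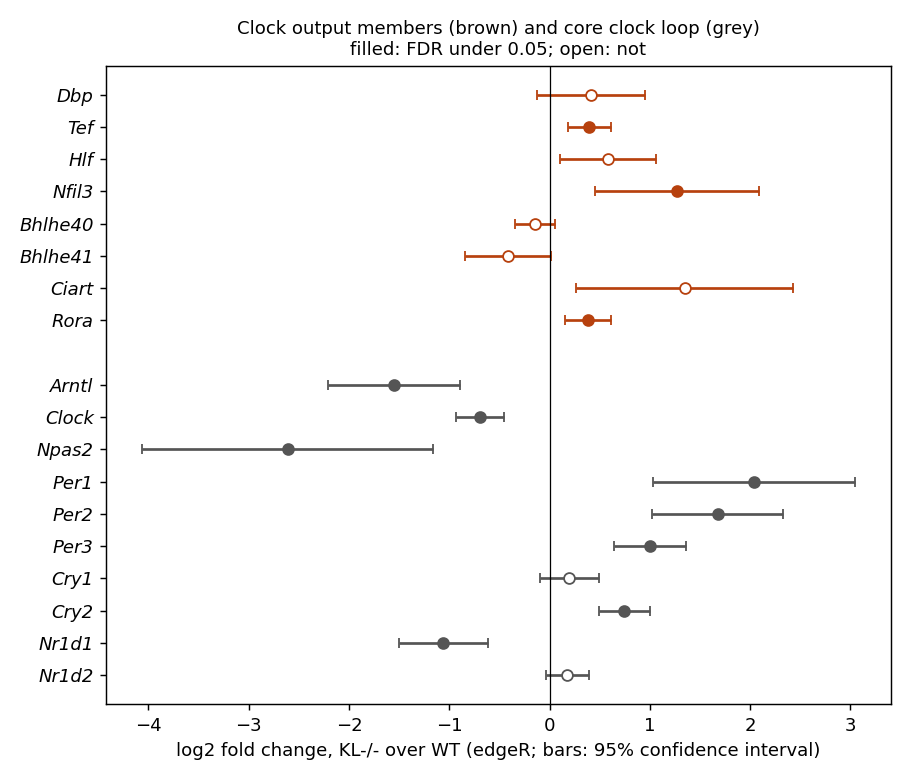
Log2 fold changes (horizontal axis, KL-/- over WT) with 95% confidence intervals from edgeR for the 8 clock output genes (brown) and 10 core clock genes (grey), filled where the FDR was under 0.05. *Tef*, *Nfil3* and *Rora* are the filled brown points, at 0.40, 1.27 and 0.38, and the grey points reach from −2.61 (*Npas2*) to 2.04 (*Per1*).

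In 5 other lists, of genes described as targets of these factors or as rhythmic, 6 of 34 measured genes rose and 1 fell, where 7.35% of all genes rose and 6.67% fell. Of 7 listed targets of DBP, TEF and HLF, 3 were measured and 0 passed edgeR's test, with 1 of them, *Alas1*, at an unadjusted p under 0.05. *Alas1*, the first enzyme of heme synthesis, was at 200, 235, 228 and 213 CPM in WT and at 171, 134, 177 and 197 CPM in KL-/- replicates 1 to 4, with a log2 fold change of −0.37 (edgeR FDR = 0.0514). It passed by DESeq2 (FDR = 0.0215), limma-voom (FDR = 0.0499) and edgeR's likelihood ratio test (FDR = 0.0293), and in 2 of the 8 fits without 1 library. All its KL-/- libraries lay below all WT libraries. *Pdxk*, which makes the active form of vitamin B6, had a log2 fold change of 0.30 (edgeR FDR = 0.258), and *Por* one of 0.0011. Of 8 lipid genes described as moving with RORA in muscle cells, *Scd2*, which encodes a stearoyl-CoA desaturase, fell by 1.72 on the log2 scale (edgeR FDR = 0.00226), and the other 7 did not pass. Its paralog *Scd1* had a log2 fold change of 1.02 (edgeR FDR = 0.118), *Fasn*, which encodes fatty acid synthase, 0.62, *Lpl*, which encodes lipoprotein lipase, 0.37, *Abca1* 0.23, *Cav3* 0.15, *Cpt1b* −0.099 and *Srebf1* −0.50. Of 8 genes described as outputs of the muscle clock, *Tcap*, which encodes a titin cap protein of the Z-disc, rose by 0.46 (edgeR FDR = 0.0399), and *Pdk4* (−0.35), *Ucp3* (−0.47) and the other 5 did not pass. Of 6 genes known to be rhythmic in many tissues, *Lonrf3* (1.95), *Wee1* (0.77), *Usp2* (0.60) and *Tspan4* (0.45) rose, and *Tsc22d3* (0.34) and *Coq10b* (0.23) did not pass. Of 9 measured genes for the turnover of clock proteins, *Csnk1e* (0.50), which encodes casein kinase 1 epsilon, rose, and 8 did not pass. *Scd2* and *Lonrf3* passed in each of the 8 fits without 1 library, *Csnk1e* and *Usp2* in 5, *Wee1* in 2 and *Tcap* and *Tspan4* in 1, with FDR of at most 0.0579, 0.0692, 0.0882, 0.109 and 0.123 in the others. *Csnk1e* was lost without WT replicate 3 and *Usp2* without WT replicate 2, and both without KL-/- replicate 3 or 4. *Wee1* passed only without KL-/- replicate 1 or 2, *Tcap* only without KL-/- replicate 2 and *Tspan4* only without WT replicate 2. Not called with all libraries, 5 genes passed only without KL-/- replicate 2. The log2 fold change was then −1.30 for *Pdk4* (edgeR FDR = 0.0451) and −1.23 for *Ucp3* (edgeR FDR = 0.0247). It was 0.52 for *Lpl* (edgeR FDR = 0.00674), 0.26 for *Csnk2b* (edgeR FDR = 0.0344) and 0.20 for *Csnk1d* (edgeR FDR = 0.0385).

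The markers of the labelled tissue were present. All 8 skeletal muscle fibre markers were measured, together at 118712 to 138268 CPM in WT and 147419 to 195088 CPM in KL-/- muscle, and 1 of them rose. In RNA of whole muscle, fewer cells of a type and less RNA per cell cannot be told apart. These counts stand beside 7.35% of all genes that rose and 6.67% that fell, and with 4 to 8 markers a list a single call is not read as a difference. Of 8 macrophage markers 2 fell (sums of 38.9 to 89.9 CPM in WT and 28.2 to 56.0 CPM in KL-/-), and of 6 fibro-adipogenic markers 3 fell (732 to 2879 and 374 to 1275 CPM). Of 6 endothelial markers 1 fell (409 to 635 and 365 to 413 CPM), of 6 Schwann cell markers 3 rose (31.6 to 57.8 and 63.7 to 82.5 CPM), and of 4 measured adipocyte markers 1 rose (179 to 200 and 207 to 253 CPM). Of 6 lymphoid markers, relevant to *Nfil3* and *Rora*, only *Ptprc* had a row, at 2.12 to 5.11 CPM in WT and 1.16 to 2.67 CPM in KL-/- muscle, and of 6 red blood cell markers only *Alas2* had one. The part of these shifts in the levels of the clock output genes was not tested.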

How the data were processed

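RNA of whole TA muscles of 4 WT and 4 KL-/- mice was sequenced from 100 ng per library. Per the methods and labels, STAR was run against mm10, poorly mapped reads were dropped, and the authors deposited raw counts per gene from featureCounts, in a table that lists only genes with reads in nearly every library. The annotation and strand setting of the counting are not given in the sources used here. The counts went into edgeR 4.0.16 (R 4.3.3): the default filter (which kept all 12551 genes), TMM factors, genotype as the only term, the quasi-likelihood test and Benjamini-Hochberg adjustment over all genes. Standard errors come from the test statistic, and CPM are TMM-normalized. For likeness, 2 was the prior count of log2 CPM, and each gene was centred. Promoters came from RefSeq. Alternatives were DESeq2 1.42.0, limma-voom (limma 3.58.1), other scalings and filters, the replicate number as a block and each library left out. Separate mice of a group are the replicates. The 8 genes and all lists were chosen with earlier results of these data known. Genes named are the 8, the core clock genes, members of the other lists that passed or had the smallest p, and the 3 nearest genes to each of the 8. A few genes that this rule names are not reported here. *Sphk2*, *Ucp3*, *Pdk4*, *Cpt1b*, *Fasn*, *Srebf1*, *Abca1*, *Cav3*, *Lpl*, *Scd1*, *Csnk1d*, *Csnk2b*, *Tsc22d3*, *Coq10b*, *Por*, *Ptprc*, *Alas2* and the genes nearest within genotypes were named after their values were seen. Intervals cover the spread between mice.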

Additional observations from a re-analysis of the deposited data

Results flagged for a closer look

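In 4 of 104 groups of 4 libraries, 1 library lay apart from the other 3 by more than Dixon's 95% limit, where chance gives about 1 in 20. These were *Bhlhe41* in KL-/- replicate 2 (103.1 CPM), *Pdk4* in KL-/- replicate 2 (1487 CPM against 227 to 370 CPM in the other KL-/- libraries), *Npas2* in WT replicate 3 (4.04 CPM against 0.925 to 1.33 CPM in the other WT libraries) and *Tcap* in WT replicate 3 (1991 CPM against 2597 to 2685 CPM).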

How the results depend on the processing

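No log2 fold change of the 8 clock output genes or the 10 core clock genes changed sign under any alternative. Of 136 alternative values for the 8 genes, 112 stayed on the same side of the threshold, 21 lost a call and 3 gained one, and for the core clock genes 163 of 169 stayed and 6 lost a call. The number of the 8 genes that passed was 3, and scaling by library totals instead of TMM made it 0, although 2619 of all genes passed. Under that scaling the median over all genes was −0.13 instead of −0.016, *Tef* went to 0.28 (FDR = 0.0507), *Rora* to 0.27 (FDR = 0.0953) and *Nfil3* to 1.15 (FDR = 0.0521). Without 1 library 0 to 4 of the 8 genes passed, and 2 to 12 of the 34 genes in the 5 other clock lists, of which 7 passed with all libraries. In both sets the most passed without KL-/- replicate 2, where 2755 of all genes (22.0%) passed as well, against 762 (6.07%) without KL-/- replicate 3 and 1759 (14.0%) with all libraries. Of the 8 genes 0 passed without WT replicate 4, where 10.9% of all genes passed, or without KL-/- replicate 3. Of the 34 genes 2 passed without KL-/- replicate 3. *Ciart* passed by edgeR's likelihood ratio test (FDR = 0.0413) and *Nfil3* did not pass by limma-voom (FDR = 0.0835). With the replicate number as a block, 1 of the 8 genes (*Nfil3*) and 3 of the 34 passed, and 671 of all genes against 1759. With the block, edgeR's unadjusted p was lower than without it for *Dbp* (0.0213), *Hlf* (0.00702), *Bhlhe41* (0.0116), *Bhlhe40* (0.104) and *Nfil3* (0.000544). It was higher for *Tef* (0.00613), *Rora* (0.00821) and *Ciart* (0.0570). Deviations of mice with the same number correlated by −0.15, 0.18, −0.37 and 0.017. Whether the number pairs the mice was not tested. The edgeR 3 form of the test was added after seeing the data and changed no call of the 18 genes. *Npas2* has no value with a minimum of 10 counts in every library. The cause of these differences was not tested. At the depth of *Ciart* and *Npas2*, counted fewer than 100 times in some libraries, the size of a change is imprecise. *Arntl* (81 counts in KL-/- replicate 2) and *Per2* (92 counts in WT replicate 3) also had fewer than 100 counts in a library.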
